A study of Mus musculus with 4 samples.

Results

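Chromatin loops at 41 genes of the ovulatory inflammatory response (cytokines, chemokines, their receptors and the NF-kB and JAK-STAT pathways) were described in mouse granulosa cells before and after an ovulatory stimulus. A gene was counted at a loop when either end of the annotated gene lay within 2.5 kb of a loop anchor, an anchor being 1 of the paired genomic bins that a loop joins. By this rule 25 of the 41 genes (61%) had a loop in at least 1 library, against 9139 of 21631 protein-coding genes (42.2%). The remaining 16 genes had none.

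The data were Micro-C loop lists, in which chromatin cut between nucleosomes is ligated and sequenced and loops are called where a pair of sites is in contact more often than its surroundings. Granulosa cells came from punctured ovaries of 21-day-old mice given 5 IU of eCG (PMSG), with 2 libraries in each group. The PMSG group was taken before any hCG (0 h), and the hCG group was taken 6 h after 5 IU of hCG, a hormone that acts on the LH receptor. All animals therefore had eCG, for 46 h by the sample characteristics and 44 h by the treatment protocol. The labels give no strain, genotype or number of animals, and do not say that the libraries of a group came from separate mice, so p-values measure only the spread between these libraries, which may be technical. Each library pooled 2 to 3 technical replicates. The lists held 8305 and 6533 loops in PMSG 1 and PMSG 2 and 7664 and 7935 in hCG 1 and hCG 2, with 393852, 272470, 311016 and 349717 contacts at the called pixels. PMSG 2 was the shallowest and had the shortest list. Loops with both anchor midpoints within 20 kb were taken as the same, which gave 12920 distinct loops. Of these, 652 were in both hCG libraries and no PMSG library (hCG-only), 491 were in both PMSG libraries and no hCG library (PMSG-only), and 3859 were in all 4.

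The LH surge sets off in the follicle a response that resembles acute inflammation. Granulosa and cumulus cells produce cytokines and chemokines, leukocytes enter, the cumulus matrix expands and the follicle wall is broken down. NF-kB dimers are held in the cytoplasm by inhibitor proteins such as the product of Nfkbia until signals from IL-1, TNF or Toll-like receptors destroy the inhibitor, and cytokines of the IL-6 and LIF family signal through gp130 (Il6st), JAK kinases and STAT3, with SOCS proteins as feedback inhibitors. A chromatin loop can bring a promoter near a distant regulatory element, but the presence of a loop does not measure expression.

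Loops called in both libraries of 1 group and in no library of the other (loops of 1 group) were found at 3 of these genes. The promoters of these 3 genes are shown because the anchors lie at or near their starts. Each is the 300 bases from 250 before to 50 after the RefSeq transcription start on GRCm38.p6, the assembly of mm10, printed 5′ to 3′ on the gene's strand. Cxcr4 is read from the minus strand (chr1:128592250-128592549), Lif from the plus strand (chr11:4257318-4257617) and Cxcl2 from the plus strand (chr5:90903649-90903948). Capitals mark matches to the NF-kB motif (GGG, any 2 bases, TTTCC) or the AP-1 motif TGACTCA, searched on both strands together with the CRE motif TGACGTCA and the C/EBP motif TTGCGCAA.
Cxcr4: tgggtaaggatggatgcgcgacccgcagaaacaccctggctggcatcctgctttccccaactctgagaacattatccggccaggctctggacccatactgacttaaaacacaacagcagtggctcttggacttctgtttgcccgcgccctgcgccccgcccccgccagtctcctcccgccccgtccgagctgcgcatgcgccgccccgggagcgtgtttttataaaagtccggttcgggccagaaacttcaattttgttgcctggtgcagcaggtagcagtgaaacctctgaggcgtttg
Lif: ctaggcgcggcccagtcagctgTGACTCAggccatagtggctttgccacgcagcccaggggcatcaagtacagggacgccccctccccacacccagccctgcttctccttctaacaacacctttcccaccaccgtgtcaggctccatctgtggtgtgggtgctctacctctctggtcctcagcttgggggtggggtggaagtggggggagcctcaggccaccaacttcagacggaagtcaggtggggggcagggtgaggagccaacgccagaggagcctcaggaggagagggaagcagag
Cxcl2: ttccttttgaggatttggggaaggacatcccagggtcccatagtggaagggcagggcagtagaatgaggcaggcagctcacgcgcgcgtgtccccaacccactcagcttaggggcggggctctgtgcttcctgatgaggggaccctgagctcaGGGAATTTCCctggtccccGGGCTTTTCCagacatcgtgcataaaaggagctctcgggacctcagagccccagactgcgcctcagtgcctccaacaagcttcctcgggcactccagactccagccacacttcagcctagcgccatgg

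The Cxcl2 promoter held 2 NF-kB matches, beginning 97 and 78 bases before the start. The Lif promoter held an AP-1 match that began 228 bases before the start. The Cxcr4 window held none of the 4 motifs in these letters. The table of promoters covered 33 of the 41 genes, with 41 starts. NF-kB matches were in 9 of those 41 promoters (22.0%), at 8 genes (Il6, Il1rn, Nfkbia, Tnfaip3, Cxcl1, Cxcl2, Ccl20 and Csf1), against 535 of 32851 promoters of the whole table (1.63%). At Il1rn 1 site was counted at 2 neighbouring starts. The whole table covered 27025 genes, and only 17274 of the placed protein-coding genes were in it. Its shares are therefore not over protein-coding genes alone. AP-1 matches were in 7 of 41 (17.1%) against 5.20% of all promoters. The CRE and C/EBP motifs were in none of the 41, against 1.79% and 0.183% of all. No match overlapped a match of another motif. Such a match describes the letters only.

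The share of inflammatory genes at loops of 1 group was close to that of all genes with a loop. Cxcr4, the receptor of the chemokine CXCL12, and Lif, a cytokine of the gp130 family, were the 2 of 25 genes (8%) at hCG-only loops, against 759 of 9139 genes (8.31%). Cxcl2, a chemokine that attracts neutrophils, was the 1 of 25 (4%) at a PMSG-only loop, against 499 of 9139 (5.46%). Loops of all 4 libraries were found at 13 of 25 (52%), against 3818 of 9139 (41.8%). These were Csf1, Csf3, Cxcl12, Cxcl2, Cxcr4, Il1a, Il6st, Lif, Nfkbia, Socs1, Socs2, Stat3 and Tnfrsf1b. All 3 genes with a loop of 1 group also had a loop of all 4 libraries. Over 5 alternatives of matching and list filtering, Csf1, Cxcl12, Cxcl2, Cxcr4 and Stat3 stayed at a loop of all 4 libraries in each, while the other 8 did not in at least 1. Under further alternatives Csf1 dropped out with the gene end inside the anchor and Cxcr4 without 25 kb bins. Stat3 dropped out when only transcription starts counted, and Cxcl12 and Cxcl2 stayed throughout. The counts rest on how calls are matched and filtered. With all 4 FDR values at 0.01 or less 1 gene was at an hCG-only loop (4.35%, against 8.05% of all genes with a loop). With lists of equal length none was at a PMSG-only loop, against 6.38% of all genes with a loop. Counting only RefSeq transcription starts at anchors, an alternative chosen after seeing the data, 18 of 33 genes with a listed start had a loop (54.5%, against 29.8% of all). Of these 18, 3 were at hCG-only loops (Cxcr4, Lif and Il1r1, 16.7% against 8.92%), 1 was at a PMSG-only loop (5.56% against 4.6%) and 8 were at loops of all 4 libraries (44.4% against 35.7%).

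**Figure D1:**
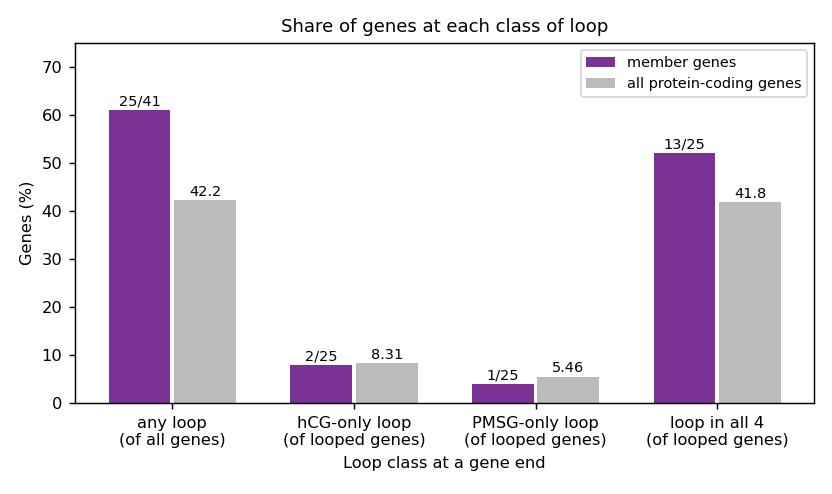
Percentage of genes (y axis) at each class of loop (x axis) for the inflammatory genes (purple, with the count above each bar) and for all protein-coding genes (grey, with the percentage above each bar). The first pair of bars is out of all placed genes and the others are out of genes with a loop. The purple bars stand at 61%, 8%, 4% and 52%, and the grey bars at 42.2%, 8.31%, 5.46% and 41.8%.

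In single libraries 19, 13, 19 and 17 of the 41 genes had a loop in PMSG 1, PMSG 2, hCG 1 and hCG 2, against 27.2%, 21.7%, 26.6% and 27% of all placed genes. The fewest were in PMSG 2, as for all genes. The 25 genes shared 41 distinct loops, of which 16 (39%) were in 4 libraries and 9 (22.0%) in 1 library, against 29.4% and 38.5% of the 8368 distinct loops at any gene. Another 7 were in 3 libraries and 9 in 2. The median was 1 distinct loop per gene, as for all genes with a loop, 14 of the 25 genes had exactly 1, and Cxcr4, Lif, Socs2 and others reached at most 3. Of the 41 loops 5 (12.2%) were missing only from PMSG 2, against 6.80% at all genes; they lay at Tlr2, Csf2 (2 loops) and Socs2 (2 loops).

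**Figure D2:**
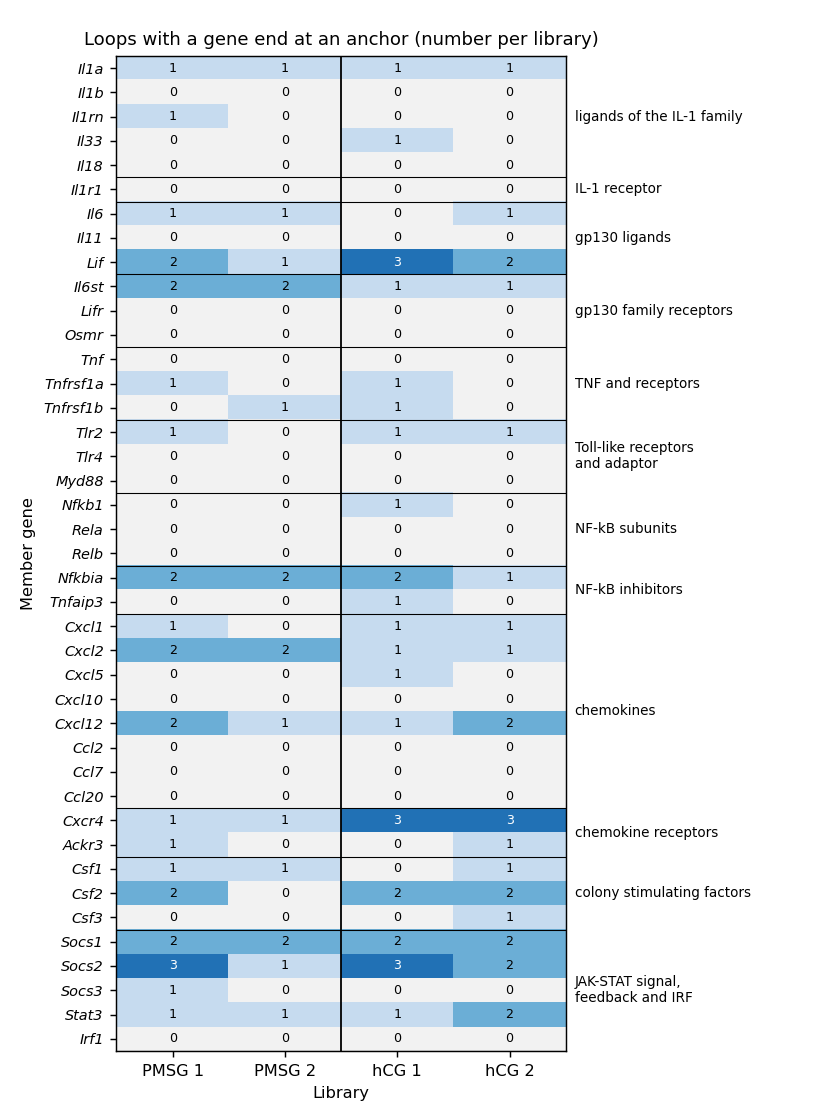
Number of loops with a gene end at an anchor for each of the 41 genes (rows, grouped by role) in each library (columns), printed in the cell and shaded from 0 to 3. Cxcr4 has 1, 1, 3 and 3 loops and Lif has 2, 1, 3 and 2, while 16 genes have 0 in every library.

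Scaled to the length of each list, 28, 17, 27 and 25 loops had an end of these genes at an anchor, which is 3.37, 2.60, 3.52 and 3.15 per 1000 loops in PMSG 1, PMSG 2, hCG 1 and hCG 2. The groups overlapped, with PMSG 1 above hCG 2. The PMSG libraries averaged 2.99 ± 0.544 per 1000 and the hCG libraries 3.34 ± 0.263 (SD, n = 2 each), a difference of 0.350 with a two-sided exact permutation p of 0.667. For all protein-coding genes the rates were 562 ± 13.8 and 586 ± 8.86 per 1000 (SD, n = 2 each), also higher in hCG. The difference at the 41 genes was -0.178 with all FDR values at 0.01 or less and -0.0347 without PMSG 2. A comparison of 2 against 2 libraries cannot give a p under 0.333. The median distance between anchors of these loops was 167.5 and 185 kb in PMSG and 140 and 165 kb in hCG. Both hCG values lay below both PMSG values, with means of 176 ± 12.4 kb and 152.5 ± 17.7 kb (SD, n = 2 each), a difference of -23.75 kb and an exact permutation p of 0.333, the smallest this design allows. The difference at loops of all protein-coding genes was -27.5 kb (165 ± 7.07 kb in PMSG and 137.5 ± 10.6 kb in hCG, SD, n = 2 each). The direction for these genes depended on the lists: with all FDR values at 0.01 or less the difference was 21.25 kb, higher in hCG, and with lists of equal length it was 0.

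Cxcr4 (mm10 chromosome 1, 128588199 to 128592299, minus strand) had 1 loop in each PMSG library and 3 in each hCG library, the largest difference in loop number between groups among the 41 genes. CXCR4 is the G protein-coupled receptor through which CXCL12 directs cell migration. The loop found in all 4 libraries joined the gene to a site 225 to 235 kb away with no gene end. It was observed with 144 and 89 contacts in 25 kb bins in PMSG 1 and PMSG 2, against 58.4 and 32.6 expected from the surrounding ring of pixels (the donut expectation). In hCG 1 it had 29 contacts in 10 kb bins against 6.37 expected, and in hCG 2 it had 16 in 5 kb bins against 2.28. The bin sizes differ, so these values cannot be compared between groups. All 4 libraries also had a loop of 455 to 465 kb that enclosed Cxcr4, with an end of Dars at an anchor in at least 1 library.

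The first hCG-only loop of Cxcr4 joined the bin at the start of the gene (128590001 to 128595000) to 128680001 to 128685000, 90 kb away, where no gene ends. It had 18 contacts against 3.26 expected in hCG 1 and 19 against 3.96 in hCG 2, in 5 kb bins, with exact Poisson 95% intervals of 10.7 to 28.4 and 11.4 to 29.7 contacts that cover counting error only. The second joined 128575001 to 128600000 to 128350001 to 128375000, which holds ends of Dars, an aspartyl-tRNA synthetase, and Mcm6, a subunit of the replicative helicase. It spanned 225 kb and had 103 contacts against 36.8 in hCG 1 (84.1 to 125) and 112 against 41.3 in hCG 2 (92.2 to 135), in 25 kb bins. In the PMSG libraries the nearest calls were 130 and 225 kb from these loops. Neither loop has a deposited contact count in PMSG, so a call missing there is no measure of how many contacts there were. The 90 kb loop was lost with all FDR values at 0.01 or less and with lists of equal length, and the 225 kb loop stayed hCG-only under both.

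Lif (chromosome 11, 4257568 to 4272514, plus strand) encodes leukemia inhibitory factor, which signals through LIFR and gp130. Its hCG-only loop joined 4260001 to 4270000, inside the gene, to 4330001 to 4340000, which has no gene end, over 70 kb. It had 31 contacts against 10.8 expected in hCG 1 (exact Poisson 95% interval 21.1 to 44.0) and 37 against 14.3 in hCG 2 (26.1 to 51.0), in 10 kb bins. The start of Lif lay 2433 bp from this anchor and its other end 2514 bp, so only the start counts, just inside the 2.5 kb limit. The nearest PMSG calls were 77.5 kb away in PMSG 1 and 87.5 kb in PMSG 2. The loop was lost with all FDR values at 0.01 or less, with lists of equal length and when the gene end had to lie inside the anchor.

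A longer Lif loop, 160 to 165 kb from the promoter to a site with no gene end, was called in 5 kb bins in every library. It had 34 contacts against 4.26 expected in PMSG 1, 25 against 2.94 in PMSG 2, 41 against 3.77 in hCG 1 and 50 against 4.02 in hCG 2. The called pixels were not the same in every library. The anchor at Lif began at 4260001 in PMSG 1 and at 4255001 in the others. The far anchor began at 4415001 in hCG 1 and at 4420001 in the others. The ratios of observed to expected at these pixels were 7.97 and 8.51 in PMSG and 10.9 and 12.4 in hCG, so the groups did not overlap. In a fit over the 1366 distinct loops that every library called with 1 bin size (edgeR quasi-likelihood on contacts, with the donut expectation as offset), the log2 ratio was 0.51 higher in hCG (SE 0.22), with an unadjusted p of 0.033 and a Benjamini-Hochberg adjusted p of 0.675. It did not pass the test at 0.05. Of the 1366 loops 27.6% had non-overlapping groups in that direction. One further loop of Lif, 35 kb long and shared with Castor1, a sensor of arginine in mTORC1 signalling, was called in PMSG 1 (25 contacts against 7.66) and hCG 1 (16 against 3.38).

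Cxcl2 (chromosome 5, 90903899 to 90905938, plus strand) lies at the end of a cluster of CXC chemokine genes. A loop in all 4 libraries spanned 240 to 245 kb from Cxcl2 across the cluster and enclosed Cxcl5, Ppbp, Pf4, Cxcl3, Cxcl15 and Cxcl1 in every library. It had 28 contacts against 4.03 expected in PMSG 1, 22 against 2.30 in PMSG 2 and 22 against 2.97 in hCG 2, in 5 kb bins, and 45 against 9.46 in hCG 1, in 10 kb bins. The PMSG-only loop joined 90900001 to 90925000 at Cxcl2 to 90775001 to 90800000, which holds ends of Cxcl3, Cxcl15 and Pf4. It spanned 125 kb and had 80 contacts against 39.7 in PMSG 1 (exact Poisson 95% interval 63.4 to 99.6) and 93 against 33.9 in PMSG 2 (75.1 to 114), in 25 kb bins.

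Each hCG library had a call 1 bin away, ending in the adjacent 25 kb bin (90875001 to 90900000). That bin holds Cxcl1 (90891245 to 90893121), which neighbours Cxcl2. With gene ends within 10 kb, Cxcl1 also counted at the PMSG-only loop, so a shift of 1 bin does not separate the 2 genes. In hCG 1 the call joined Cxcl1 to the bin with ends of Cxcl5, Pf4 and Ppbp over 125 kb, with 118 contacts against 48.2. In hCG 2 it joined Cxcl1 to the bin with Cxcl3, Cxcl15 and Pf4 over 100 kb, with 121 against 56.6. Both were 25 kb from the PMSG-only loop, beyond the 20 kb match distance, and with a match distance of 50 kb the loop was no longer PMSG-only. Among all loops, 52 of 491 PMSG-only (10.6%) and 68 of 652 hCG-only loops (10.4%) had a call of the other group within 25 kb. Cxcl1, like Cxcl2 a ligand of the neutrophil receptor CXCR2, had a further loop of 675 kb in PMSG 1 alone, to ends of Ankrd17 and Cox18 (47 contacts against 15.2).

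**Figure D3:**
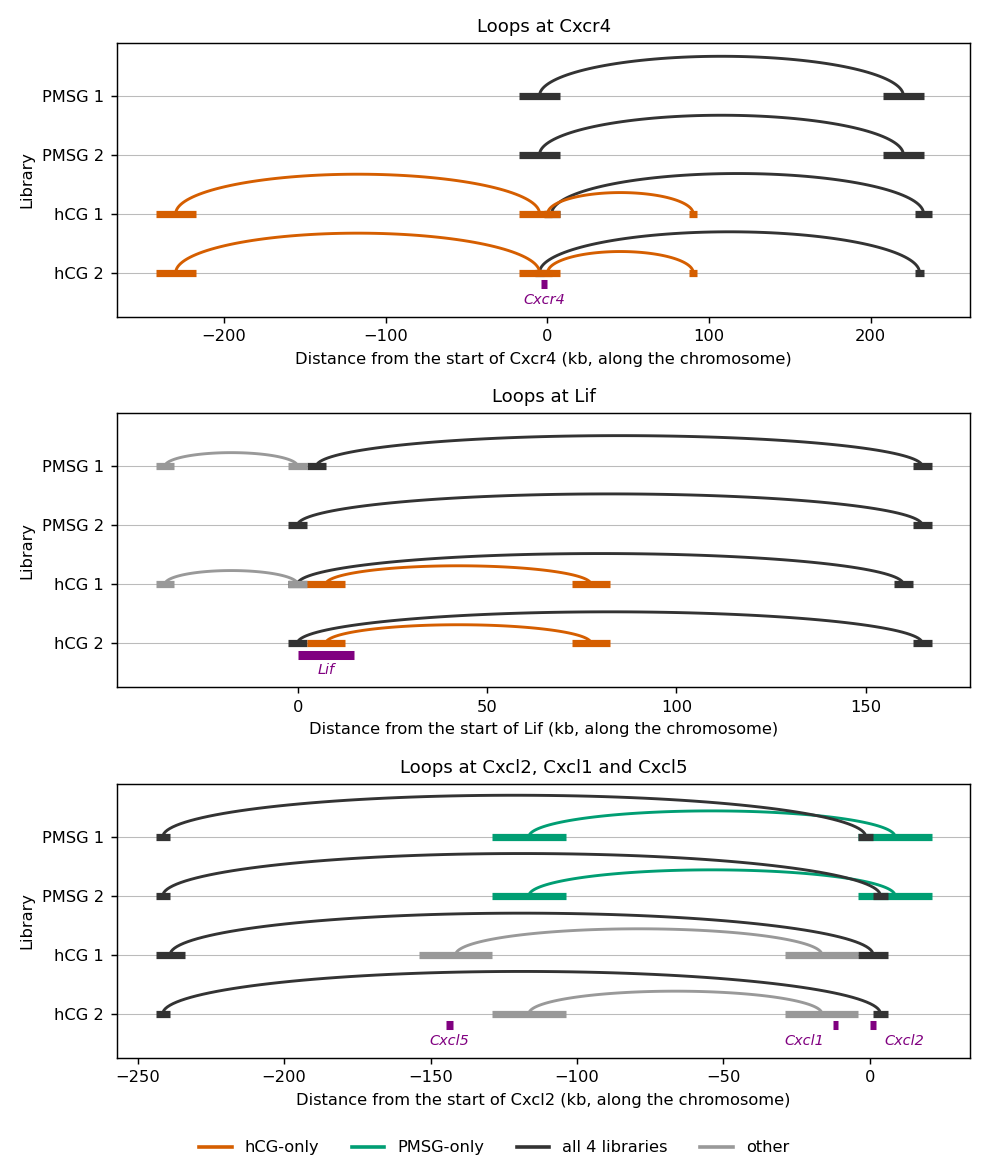
Loops at Cxcr4, Lif and the Cxcl2 cluster in each library (rows), drawn as arcs between anchors (thick bars to scale) against distance from the gene's start in kb; purple bars are genes. The 675 kb Cxcl1 loop of PMSG 1 lies outside the bottom panel. Orange arcs (hCG-only) appear in both hCG rows at Cxcr4 and Lif. In the bottom panel the green arcs (PMSG-only) end in the 25 kb bin that holds Cxcl2. The grey arcs of the hCG libraries end in the adjacent 25 kb bin, which holds Cxcl1.

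The other chemokine genes had no hCG-only or PMSG-only loop. Cxcl12, the ligand of CXCR4 and ACKR3, had the longest loop of all 4 libraries among these genes, 660 kb from its promoter to a site with no gene end. It had 38 contacts against 5.11 expected in PMSG 1, 18 against 2.91 in hCG 1 and 23 against 3.44 in hCG 2, in 10 kb bins, and 17 against 0.864 in PMSG 2, in 5 kb bins. Further loops of Cxcl12 were called in PMSG 1 (200 kb, 23 contacts against 5.78) and hCG 2 (500 kb, 52 against 19.1). Ackr3, a scavenging receptor of CXCL12, had a 375 kb loop in PMSG 1 (110 against 43.9) and hCG 2 (114 against 34.7). Cxcl5 took part only in the hCG 1 loop with Cxcl1. Cxcl10, Ccl2, Ccl7 and Ccl20, which attract T cells, monocytes and other leukocytes, had no loop.

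Of the IL-1 family, Il1a, which encodes IL-1 alpha, was the one gene with a loop in all 4 libraries. The loop ran 100 to 110 kb from Il1a (chromosome 2, 129299609 to 129310186) and enclosed Il1b (129364569 to 129371164), which encodes IL-1 beta and had no loop of its own. It had 36, 30 and 35 contacts in PMSG 1, hCG 1 and hCG 2, in 10 kb bins, against 12.9, 9.22 and 13.3 expected, and 112 against 54.9 in PMSG 2, in 25 kb bins. Il1rn, which encodes the IL-1 receptor antagonist, had a loop of 50 kb to Psd4 in PMSG 1 alone (56 against 21.4). Il33, an alarmin, had one of 200 kb in hCG 1 alone (68 against 29.8). Il18 had none, and the receptor gene Il1r1 had none at a gene end, although anchors of 2 hCG-only loops lay inside its body.

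Among gp130 genes, Il6, a main cytokine of cumulus expansion, had a 190 kb loop to a site with no gene end in 3 libraries. It had 14 contacts against 2.41 in PMSG 1 in 5 kb bins, and 29 against 8.34 in PMSG 2 and 25 against 7.63 in hCG 2 in 10 kb bins, and was not called in hCG 1. Il6st, which encodes gp130 (chromosome 13, 112464070 to 112506860), had loops only at its 3′ end. One of 200 to 205 kb was in all 4 libraries, with 26, 22 and 23 contacts in PMSG 1, hCG 1 and hCG 2 against 4.83, 4.21 and 4.40 in 5 kb bins, and 39 against 9.99 in PMSG 2 in 10 kb bins. Its anchor in PMSG 1 and hCG 2 was 3141 bp from the gene end, outside the limit. Another of 230 to 240 kb was called in PMSG 1, PMSG 2 and hCG 1 (in hCG 1 also 3141 bp away), and one of 750 kb in PMSG 1 and hCG 2. Il11 and the receptor genes Lifr and Osmr had no loop at a gene end.

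Of the TNF and Toll-like receptor genes, Tnfrsf1b, which encodes TNF receptor 2, had a loop of 65 to 75 kb in all 4 libraries, called in 5 kb bins. It had 32 contacts against 6.47 in PMSG 1, 19 against 2.68 in PMSG 2, 24 against 2.76 in hCG 1 and 25 against 4.49 in hCG 2. In PMSG 1 and hCG 2 the gene's 3′ end was 2633 bp from the anchor, just outside the 2.5 kb limit. Tnfrsf1a, which encodes TNF receptor 1, shared a 90 kb loop with Tuba3a in PMSG 1 (52 against 15.5) and hCG 1 (33 against 7.36). Tlr2, a receptor of bacterial lipoproteins, had a loop of 50 to 65 kb in PMSG 1, hCG 1 and hCG 2, with 20, 14 and 32 contacts. Tnf, Tlr4 and the adaptor gene Myd88 had none.

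Of the NF-kB genes, Nfkbia, which encodes the inhibitor I-kappa-B alpha (chromosome 12, 55489409 to 55492647, minus strand), had 2 loops in all 4 libraries. The first spanned 185 kb and was called in 5 kb bins with 46 contacts against 4.58 in PMSG 1, 22 against 2.14 in PMSG 2, 24 against 3.13 in hCG 1 and 27 against 3.19 in hCG 2. Its ratios of observed to expected were 10.04 and 10.3 in PMSG and 7.68 and 8.47 in hCG, without overlap between groups. The log2 ratio was -0.33 in hCG against PMSG (SE 0.24; edgeR adjusted p = 0.874) and did not pass the test. Groups did not overlap in that direction at 7.1% of the 1366 loops. In the PMSG libraries the gene's 5′ end lay 2354 bp outside the anchor, just inside the 2.5 kb limit. Both hCG calls lay 1 bin further along the chromosome, 7354 bp from the gene. The gene end therefore counted only in the PMSG libraries, while the loop enclosed the gene in all 4 libraries. With the gene end inside the anchor, Nfkbia kept 1 loop of all 4 libraries.

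The second Nfkbia loop spanned 100 to 140 kb. In PMSG 1 (5 kb bins) it had 29 contacts against 5.94. In 25 kb bins it had 140 against 54.3 in PMSG 2 and 179 against 76.5 in hCG 2. In hCG 1 (10 kb bins) it came as 2 calls, 53 against 11.8 (140 kb) and 45 against 10.2 (110 kb). The far anchor held ends of Prorp and Psma6, a proteasome subunit, in PMSG 2, hCG 2 and the 110 kb call of hCG 1. It held no gene end in PMSG 1 or in the 140 kb call of hCG 1. Nfkb1, which encodes p105 and p50, had a loop of 60 kb in hCG 1 alone (31 against 12.1), with its other anchor in the gene's body. Tnfaip3, which encodes the ubiquitin-editing inhibitor A20, had one of 175 kb in hCG 1 alone (104 against 38.4). Rela and Relb had none.

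Of the 5 genes of JAK-STAT signalling and its feedback, 4 had a loop and 3 had a loop of all 4 libraries, where 42.2% of all genes had a loop and 41.8% of those had one of all 4 libraries. Stat3, the transcription factor downstream of gp130 (chromosome 11, 100886806 to 100939594), had a 175 kb loop from its 3′ end, an anchor shared with Stat5a, to a bin with ends of Atp6v0a1 and Naglu. It was called at the same pixel in all 4 libraries, with 210 contacts against 82.2 in PMSG 1, 55 against 22.5 in PMSG 2, 92 against 36.2 in hCG 1 and 115 against 45.6 in hCG 2. The ratios lay between 2.45 and 2.55, and the log2 difference was 0.01 (SE 0.12; edgeR adjusted p = 0.999). A shorter Stat3 loop of 60 to 70 kb had the gene end at the anchor in hCG 2 alone. Its far anchor held an end of Cavin1, a caveolar coat protein, in PMSG 1, PMSG 2 and hCG 2, and no gene end in hCG 1. The loop had 50, 19, 19 and 22 contacts in 5 kb bins against 7.86, 3.37, 3.60 and 4.62. Its ratios were 6.36 and 5.63 in PMSG and 5.28 and 4.76 in hCG, and the log2 difference of -0.30 (SE 0.26; edgeR adjusted p = 0.892) did not pass the test.

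Socs1 (chromosome 16, 10783808 to 10785536), which encodes an inhibitor of JAK kinases, had 2 loops in all 4 libraries from an anchor it shared with the protamine and transition protein genes Prm2, Prm3 and Tnp2. One spanned 200 to 215 kb, and the other, 120 to 140 kb long, had 67 contacts against 23.0 in PMSG 1, 29 against 8.39 in PMSG 2, 33 against 10.7 in hCG 1 and 39 against 13.7 in hCG 2, in 10 kb bins. Socs2, a feedback inhibitor best known for limiting growth hormone signalling, had 3 distinct loops, of which one of 315 to 330 kb was in all 4 libraries. Its 90 kb loop with Cradd had 38 contacts against 5.51 in PMSG 1, 27 against 3.27 in hCG 1 and 27 against 3.32 in hCG 2, all in 5 kb bins, and was missing from PMSG 2. Socs3, the main feedback inhibitor of gp130 signalling, shared a loop of 45 to 50 kb with Dnah17 and Pgs1 in PMSG 1 (59 against 27.8) and hCG 2 (19 against 4.84), where the gene end was 4665 bp from the anchor and so did not count. Irf1, an interferon response factor, had none.

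All 3 genes of colony stimulating factors had a loop, against 42.2% of all genes. Csf1, the macrophage factor, had a loop of 55 to 60 kb with Ahcyl1 in all 4 libraries, with 60 and 35 contacts in PMSG in 10 kb bins (23.9 and 12.9 expected) and 19 and 23 in hCG in 5 kb bins (3.61 and 4.44 expected); in hCG 1 the gene end was 5469 bp from the anchor. Csf2, which encodes GM-CSF, had loops of 105 to 110 kb and 240 to 250 kb in PMSG 1, hCG 1 and hCG 2, and neither in PMSG 2. The shorter had 42, 35 and 17 contacts and the longer had 17, 19 and 23. Csf3, which encodes G-CSF, counted at a loop of all 4 libraries by 1 hCG 2 call alone (70 kb, 35 contacts against 14.1). The anchors of that call also held ends of Med24, Nr1d1 and Thra. In PMSG 1, PMSG 2 and hCG 1 the nearest anchor lay 6370, 36370 and 16370 bp from the gene. When a gene end had to be at the anchor in 2 libraries Csf3 dropped out.

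Every library called 6 loops of these genes with 1 bin size, and none of the 6 passed the test of strength. Only 1 of the 6, the 175 kb Stat3 loop, was called at the same pixel in every library. For Socs1 (120 to 140 kb) the log2 difference was -0.05 (SE 0.21; edgeR adjusted p = 0.985), and for Tnfrsf1b it was 0.28 (SE 0.29; edgeR adjusted p = 0.903). Over all 1366 loops the fit called 0 (91 at an unadjusted p under 0.05), and over the 435 at identical pixels it also called 0 (29 unadjusted), while DESeq2 called 0 in both (5 and 1 unadjusted). The median log2 difference over all 1366 loops was 0.15, against which the Lif value of 0.51 is to be read. Without PMSG 1 that median was 0.00 and without PMSG 2 it was 0.26, so the general shift moved with the choice of library.

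**Figure D4:**
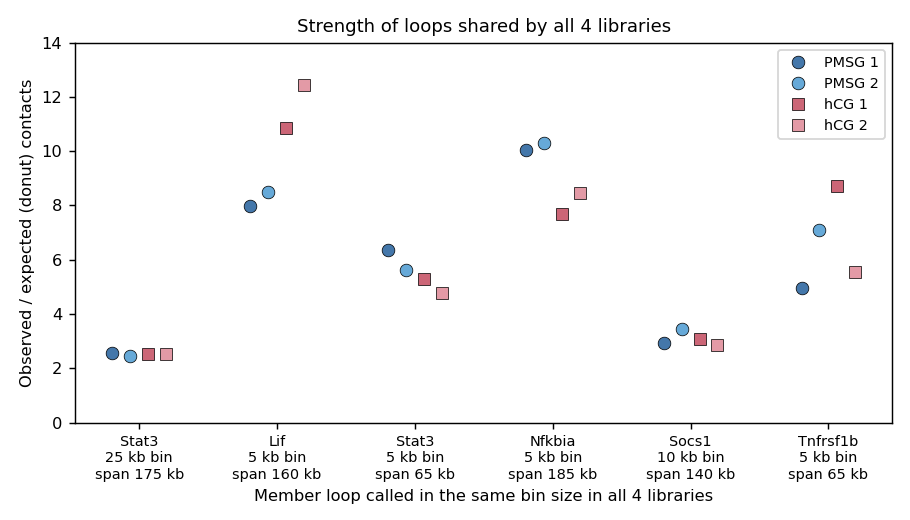
Ratio of observed to expected (donut) contacts (y axis, linear from 0) for the 6 loops of these genes with 1 bin size in every library (x axis, with gene, bin size and span in PMSG 1). Circles are PMSG libraries and squares are hCG libraries, 1 point per library with no error bar. Both hCG points lie above both PMSG points at Lif (10.9 and 12.4 against 7.97 and 8.51) and below them at Nfkbia and at the shorter Stat3 loop.

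The far anchor of a loop held a gene end in 16 of 41 loops of these genes (39%), against 2714 of 8368 loops at any gene (32.4%). Which gene end lay at the loop was known for 21 of the 25 genes, since the promoter table gives no strand for Csf3, Cxcl5, Nfkb1 and Socs2. It was the 5′ end alone for 7 (Csf1, Csf2, Cxcl12, Il33, Lif, Socs3 and Tlr2), the 3′ end alone for 5 (Il1rn, Il6st, Stat3, Tnfrsf1a and Tnfrsf1b) and both for 9. Within a bin size, the median ratio of observed to expected contacts was 5.57, 3.40 and 2.55 in 5, 10 and 25 kb bins at these genes and 6.58, 3.82 and 2.59 at all loops.

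The 16 genes without a loop were Il1b, Il1r1, Il11, Lifr, Osmr, Il18, Tnf, Rela, Relb, Tlr4, Myd88, Cxcl10, Ccl2, Ccl7, Ccl20 and Irf1. The nearest anchor of any library was closest at Il18 (4.7 kb) and Irf1 (5.01 kb), and farthest at Ccl7 (182 kb) and Ccl2 (193 kb). Of the 16, 7 (43.8%) lay inside a loop in every library (Il1b, Il1r1, Il11, Lifr, Tnf, Cxcl10 and Irf1), against 2356 of 12492 genes without a loop at an end (18.9%), and the other 9 (56.2%) lay inside none in any library, against 60%. These shares are a description with no test. The loop around Tnf was 55 to 65 kb long with ends of Aif1, Atp6v1g2, Nfkbil1 and Prrc2a at its anchors, that around Cxcl10 was 70 kb, and that around Irf1 was 90 to 110 kb.

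Of 94 other genes of the same pathways, 93 were placed and 37 had a loop, against 42.2% of all genes. Of these 37, 4 (10.8%, against 8.31% of all genes with a loop) were at hCG-only loops: Chuk, which encodes the kinase IKK alpha, Rel, which encodes the NF-kB subunit c-Rel, Il1r2, the decoy receptor of IL-1, and the chemokine gene Ccl28. The Rel loop spanned 100 kb, with 116 contacts against 53.2 in hCG 1 in 25 kb bins and 32 against 12.8 in hCG 2 in 10 kb bins. The Chuk loop spanned 275 kb with 60 against 24.6 and 68 against 29.0, and its other anchor held ends of Abcc2 and Dnmbp. The loop counted for Ccl28 had an end of Hmgcs1 at its other anchor. It spanned 50 kb in hCG 1 (37 against 9.69, 10 kb bins) and 35 kb in hCG 2 (19 against 3.73, 5 kb bins). An end of Ccl28 lay at the anchor in hCG 2 alone. Cxcl3 was the 1 gene at a PMSG-only loop, the one it shares with Cxcl2 (2.70% against 5.46%), and 19 were at loops of all 4 libraries (51.4% against 41.8%).

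Loops at marker genes were counted as a view of the cells that could be present, although they do not measure expression. Of all protein-coding genes 42.2% had a loop. Of granulosa markers 8 of 10 had a loop (11, 5, 15 and 14 loops in PMSG 1, PMSG 2, hCG 1 and hCG 2), the exceptions being Cyp19a1 and Nr5a1, and 3 of the 8 were at hCG-only loops (Inhba, Nr5a2 and Esr2, 37.5% against 8.31% of all genes with a loop) and 1 at a PMSG-only loop (Inhba, 12.5% against 5.46%). Loops of all 4 libraries were at 2 of these 8 (Foxl2 and Inhba, 25% against 41.8%). Of leukocyte markers 4 of 10 had a loop (1, 2, 2 and 4 loops), with none at Ptprc. Of these 4, 1 was at a PMSG-only loop (Lyz2, 25% against 5.46%) and 1 at a loop of all 4 libraries (Spi1, 25% against 41.8%). Endothelial markers had a loop at 1 of 5 (Cdh5, 1 in each library), and theca and stromal markers at 5 of 6 (11, 8, 12 and 14 loops). Of those 5, 3 were at PMSG-only loops (Col1a1, Pdgfra and Acta2, 60% against 5.46%) and 2 at hCG-only loops (Pdgfra and Nr2f2, 40% against 8.31%). Loops of all 4 libraries were at 3 of the 5 (Cyp17a1, Col1a1 and Pdgfra, 60% against 41.8%). The share of leukocytes or other cells in each library, and its part in the loops at Cxcr4, Lif and Cxcl2, was not tested.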

How the data were processed

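Sample titles gave the PMSG and hCG groups, 4 libraries in all. Reads were processed with BWA and Juicer on mm10, per the submitters' processing notes. The lists come from juicer_tools 1.22.01, per the file headers; no BWA version or caller setting is given in the sources used here. Calls in 5, 10 and 25 kb bins are merged in 1 list per library. A pixel's observed contacts are deposited as a raw count, per the file headers. Its expected contacts are a deposited signal taken from 4 surrounding areas, the bottom left, the donut, the horizontal and the vertical one. For each area the deposited lists hold an FDR (q-value), under 0.1 throughout. Pixels had a median of 32 to 36 contacts, so single ratios are imprecise, and a shorter list can come from shallower sequencing. Contacts can include PCR copies, so intervals cover counting error only.

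Positions are counted from 1. Distinct loops were connected sets of calls whose anchor midpoints both lay within 20 kb, and span is the distance between midpoints. A gene needed an end at the anchor in only 1 of the libraries. Genes came from RefSeq on GRCm38.p6, with 21631 protein-coding genes placed; that table gives no strand, which for 33 of the 41 genes came from the RefSeq promoter table. Exons and introns at anchors were not assigned. Strength was fitted with edgeR 4.0.16 (quasi-likelihood, R 4.3.3) over all loops that every library called with 1 bin size, with the log of the donut expectation as offset, Benjamini-Hochberg adjustment and a threshold of 0.05; DESeq2 1.42.0 was an alternative. Where a library had several calls of a loop in that bin size, the fit used the one with the highest ratio of observed to expected. Fits and matching were run on simulated data simpler than these lists. For matching, a single list was copied with small shifts, so matches across bin sizes were not tested. For the fit, counts were drawn at the deposited expectations, without the choice of a highest call. Permutation tests over libraries were exact and two-sided. Other steps used Python 3.11.15, numpy 2.4.6, pandas 2.3.3 and scipy 1.17.1.

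The genes and lists were chosen with earlier results of these data known. Every gene of the list with a loop is named, with positions or contacts for those at hCG-only, PMSG-only or all-4 loops, all genes at the far anchor of a loop of 1 group, and other pathway genes at such loops. Whether replicate numbers pair the samples is not settled here. The correlation over loops of deviations between same-numbered libraries was -0.0157 at identical pixels and -0.0080 in the same bin size. It takes out any shift common to all loops of a library and rests on low counts, so it cannot decide the question.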

Additional observations from a re-analysis of the deposited data

How the results depend on the processing

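Members with a loop numbered 17 to 29 over the alternatives, within 1.5 times of 25. The 17 came with the gene end at the anchor in 2 libraries (41.5%, against 25.5% of all genes). The 29 came with gene ends within 10 kb (70.7% against 53.7%). Genes at hCG-only loops numbered 1 (Cxcr4) with all FDR values at 0.01 or less (4.35%, against 8.05% of all genes with a loop). With the gene end inside the anchor they also numbered 1 (4.35% against 8.01%). They numbered 2 to 7 when a library was left out, Cxcr4 and Lif among them each time. There were 5 without PMSG 1, 2 without PMSG 2, 4 without hCG 1 and 7 without hCG 2. The share of all genes with a loop was 21.5%, 11.4%, 25.7% and 24.7% in those 4 cases, so the class grew for all genes. Lists of equal length gave Cxcr4 and Socs2 (9.52% against 8.23%). Without 25 kb bins Cxcr4 kept the 90 kb loop, while its 225 kb loop was gone and the loop of all 4 libraries (230 to 235 kb) counted as hCG-only, since PMSG had called it only in 25 kb bins. Genes at PMSG-only loops numbered 0 with a 50 kb match distance, 0 with lists of equal length and 0 without 25 kb bins. The share of all genes with a loop was 4.87%, 6.38% and 4.14% there. With overlapping anchors as the match they numbered 3 (Cxcl2, Il6st and Nfkbia, 12% against 7.27%). With gene ends within 10 kb they also numbered 3 (10.3% against 5.97%). They numbered 1 to 4 when a library was left out (1 without PMSG 1, 4 without PMSG 2, 2 without hCG 1 and 2 without hCG 2). All genes with a loop stood at 15.6%, 25.1%, 10.2% and 11.3% in those cases. Genes at loops of all 4 libraries numbered 7 with overlapping anchors (28% against 18.9%). They numbered 8 (of 18 with a loop, 44.4% against 35.7%) when only RefSeq transcription starts counted, an alternative chosen after seeing the data. The difference in loops per 1000 was -0.178 with FDR values at 0.01 or less and -0.0347 to 0.735 when a library was left out (-0.0347 without PMSG 2). The difference in median span was 21.25 kb with FDR values at 0.01 or less, 0 with lists of equal length, and -36.25 to -11.25 kb when a library was left out. The cause of these changes was not tested.

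No loop of these genes passed the strength test under any alternative, edgeR's adjusted p for Lif lay between 0.185 and 0.999, and its log2 difference between 0.41 and 0.81. With the replicate number as a block, 0 of 6 loops of these genes and 0 of all loops were called (57 in the same bin size and 17 at identical pixels at an unadjusted p under 0.05). Over all 1366 loops, 0 to 3 were called under any alternative (2 higher and 1 lower with the bottom left expectation or the mean of the 4), and over the 435 at identical pixels 0 to 2, so the low count held for these alternatives. Small differences turned sign: the 175 kb Stat3 loop to -0.0089 with the mean of the 4 expectations, -0.164 with TMM factors and no local expectation, and -0.0122 without PMSG 2. Leaving out a library gave -0.0122 to 0.0501 for this loop. It gave -0.225 to 0.0209 for Socs1, which turned without PMSG 2 (0.0209) and without hCG 2 (0.00119), and -0.0686 to 0.626 for Tnfrsf1b, which turned without PMSG 1 (-0.0686) and without hCG 1 (-0.0207). Depth limits all calls: a loop missing from a list may still have contacts there.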

Other observations

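Il1r1, which encodes the signalling receptor of IL-1 (mm10 chromosome 1, 40222480 to 40316201), had no loop at a gene end, but 2 hCG-only loops had an anchor in its body, and no PMSG library had one there. The first joined the bin of Il1r2, the decoy receptor of IL-1 (40100001 to 40125000), to 40250001 to 40275000, which holds a second RefSeq start of Il1r1 at 40266586, over 150 kb. It had 98 contacts against 44.0 expected in hCG 1 and 118 against 55.3 in hCG 2, in 25 kb bins. The second ran 60 to 70 kb from the body of Il1r1 to a site past the gene, with 43 contacts against 15.6 and 48 against 17.8, in 10 kb bins. All 4 libraries had loops of 255 to 260 kb and 425 to 430 kb that enclosed the gene and had ends of Il1r2 at an anchor. Of 12492 genes with no loop at a gene end, 122 (0.977%) had an anchor of an hCG-only loop in their body and 96 (0.768%) one of a PMSG-only loop. Il1r1 was singled out after its values were seen, so this is a description with no test.

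Lifr, which encodes the receptor of LIF, also had anchors in its body, each in 1 library: a 90 kb loop in PMSG 1 (42 contacts against 15.1) and another of 90 kb in hCG 1 (32 against 9.39), whose anchor held a RefSeq start of Lifr at 7129572. In every library 2 loops of 310 to 320 kb and 525 to 540 kb enclosed the gene. Neither loop of the body was found in both libraries of a group.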
